A study of Homo sapiens with 16 samples.

Results

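The T4 dose series follows gene expression in U2OS cells, an established human osteosarcoma line, after 6 h of treatment. It is made up of 6 of the study's 16 libraries, chosen by their labels: 1 of cells given DMSO, the solvent, and 1 each of cells given T4 at 0.5, 2, 5, 10 or 20 µM. T4 and T5 are known in the series only by these code names and by their description as modulators of alternative polyadenylation. The other 10 libraries, T5 and CPT at the same 5 doses and time, enter where T4 is set against them at matched doses, and in the mean FPKM that decides which genes are tested. All groups share the line, the serum-containing medium and the 6 h, and U2OS is a single tumour line, not bone tissue. No dose was replicated, and the labels do not say whether the dishes were separate cultures.

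The 3' end of almost every messenger RNA is made by cutting the growing transcript downstream of a poly(A) signal and adding a poly(A) tail. The machinery that does so holds CPSF, which reads the signal, CstF, which binds the RNA beyond the cut, cleavage factors I and II, and poly(A) polymerases. Many genes have several such sites, and the choice between them is called alternative polyadenylation. Immediate early genes such as FOS, EGR1 and JUNB code for transcription factors and switch on within minutes of growth signals or stress, and their mRNAs are short-lived.

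Expression is given as FPKM, which divides the fragments of a gene by its transcript length and by the fragments mapped in its library. Of 25270 genes, 10600 averaged at least 1 FPKM across the 16 libraries and were tested. A gene near 0 in DMSO passed this filter only where treated libraries raised its mean, which favours rises among such genes. For each, log2(FPKM + 1) was fitted by limma on dose over the 6 libraries, and a "change" below is the fitted difference between 20 µM and DMSO on that scale, with its standard error after ±. A gene is said to rise or fall where its Benjamini-Hochberg adjusted p, over all tested genes, was under 0.05. With 1 library per dose, such a p weighs the fitted slope against the scatter of single libraries around that line, not against replicates. In bulk RNA, fewer cells of a kind and less RNA per cell cannot be told apart.

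FPKM summed to between 238669 and 269577 per library, and the absolute depth is unknown. Read from the steps of low values, depth relative to DMSO was 0.941, 0.818, 0.818, 0.810 and 0.757 from 0.5 to 20 µM. The number of genes at an FPKM of 1 or more was 11017 in DMSO and 10583, 10157, 9897, 9745 and 9729 at the 5 doses, and the part of depth in that count was not tested. The median change of all genes was -0.27. Setting every library to the same median added 0.65 to every change, and with quantile normalization the median change was 0.08. Where median centring turns the direction of a gene group, its counts are given with both scalings.

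Markers of the line were mixed. COL1A1 and SPARC, matrix genes of bone-forming cells, had 301 and 227 FPKM in DMSO, and RUNX2 and ALPL had 2.86 and 2.54. COL1A2, a collagen chain of mesenchymal cells, SP7 and DLX5, transcription factors of osteoblast commitment, and BGLAP, IBSP and DMP1, proteins of mineralizing bone, were at or near 0 in DMSO. Of 11 epithelial markers, the keratins KRT8 and KRT18 were at 88.7 and 125 FPKM in DMSO, CLDN4 at 3.15 and EPCAM at 1.53. The other 7, CDH1 and KRT19 among them, were below 0.5 FPKM in DMSO. With T4 one of them, KRT7, was at 0.797 FPKM at 10 µM. The 12 markers of blood cells summed to between 0.421 and 1.15 FPKM in the 6 libraries.

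At every T4 dose more genes were at least 2-fold lower than in DMSO than at least 2-fold higher, and the balance shifted with dose. At 20 µM, 450 genes were at least 4-fold lower than in DMSO and 39 at least 4-fold higher, and at 0.5 µM these counts were 6 and 9. The number 4-fold higher was largest at 5 and 10 µM (53 and 52). At the 5 doses 0.0566%, 0.302%, 1.16%, 2.73% and 4.25% of tested genes were 4-fold lower, and 0.0849%, 0.33%, 0.5%, 0.491% and 0.368% were 4-fold higher. The shares at least 2-fold lower were 1.03%, 9.75%, 17.3%, 21.6% and 22.9%, and those at least 2-fold higher 0.368%, 2.25%, 2.12%, 1.64% and 1.2%. The median ratio to DMSO of all tested genes was -0.02, -0.16, -0.27, -0.26 and -0.24 (log2) at the 5 doses, with an interquartile range of -0.92 to 0.23 at 20 µM. These are ratios of 1 library to 1 library and have no replicate check.

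**Figure D1:**
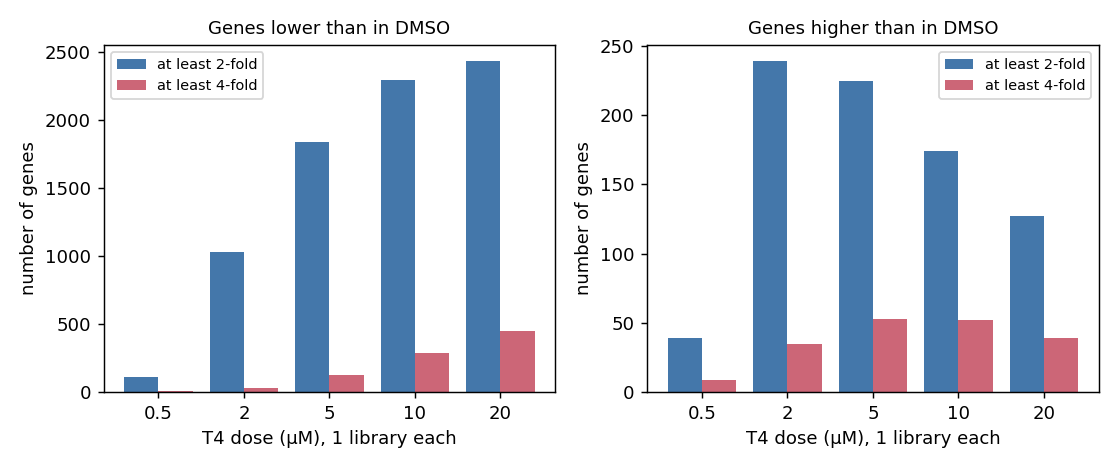
Number of the 10600 tested genes at least 2-fold (blue) and at least 4-fold (red) lower (left) or higher (right) than in the DMSO library, at each T4 dose in µM, 1 library per dose. The left panel climbs at every dose to 2430 and 450 genes at 20 µM, whereas the right panel is highest at 2 µM for 2-fold (239) and at 5 µM for 4-fold (53).

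Genes that ended low and genes that ended high reached that state at different doses. Of the 127 genes at least 2-fold higher at 20 µM, 18 had passed 2-fold from 0.5 µM and stayed there, a further 59 from 2 µM, 15 from 5 µM, 8 from 10 µM and 27 at 20 µM only. Of the 2430 genes 2-fold lower at 20 µM, 58 did so from 0.5 µM, 585 from 2 µM, 763 from 5 µM, 639 from 10 µM and 385 at 20 µM only. The commonest first dose was thus 2 µM for the higher genes and 5 µM for the lower ones.

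Over the whole series, 1533 genes (14.5% of those tested) rose and 3438 (32.4%) fell. The typical rise was small, with a median of 0.64, and the typical fall was larger, with a median of -1.39. Few moved the same way at each step. Of the rising genes 213 (13.9%) were higher at every dose than at the one before, and of the falling genes 743 (21.6%) were lower. Without the 0.5 µM library 785 genes rose, and without 10 µM 850 rose. With dose taken in µM, unlogged, 99 genes rose and 1328 fell. Median centring turned the balance, with 4293 genes rising (40.5%) and 1847 falling (17.4%), and quantile normalization gave 2807 (26.5%) and 2102 (19.8%). The counts of gene groups below are to be read beside these shares of all tested genes.

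The 5 largest rises were those of the immediate early genes FOS, EGR1, JUNB and ARC and of the chemokine gene CXCL8. The 150 bases just upstream of the transcription starts of FOS, EGR1 and CXCL8 are shown because these genes rose furthest and differ in the motifs found in these bases. They are RefSeq sequences of GRCh38.p14, plus strand, 5' to 3', at chr14:75278678-75278827, chr5:138465329-138465478 and chr4:73740419-73740568. Capitals mark matches to the motifs searched on both strands.
FOS: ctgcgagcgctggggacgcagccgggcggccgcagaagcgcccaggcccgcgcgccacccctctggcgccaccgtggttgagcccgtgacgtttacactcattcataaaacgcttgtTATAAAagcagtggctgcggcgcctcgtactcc
EGR1: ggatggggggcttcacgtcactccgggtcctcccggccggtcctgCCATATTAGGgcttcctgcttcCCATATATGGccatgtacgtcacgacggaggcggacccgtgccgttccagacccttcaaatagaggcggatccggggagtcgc
CXCL8: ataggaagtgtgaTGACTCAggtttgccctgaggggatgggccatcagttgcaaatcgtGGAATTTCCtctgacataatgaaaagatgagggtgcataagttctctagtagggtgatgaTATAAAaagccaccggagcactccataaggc

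The capitals in FOS are a TATAAA, the core of a TATA box. Those in EGR1 are a pair of CArG boxes, the element that serum response factor binds. In CXCL8 they are a TGANTCA match, the form bound by AP-1, which is made of FOS and JUN family proteins, then GGAATTTCC, a form bound by NF-kB, and a TATAAA. The motifs searched were these, TGACGTCA and GCGTGGGCG, and no match overlaps another in the bases shown. Of 27305 RefSeq windows reaching from 250 bases before to 50 bases after a start, 12% held TATAAA, 1.29% a CArG box, 7.76% TGANTCA and 0.472% GGAATTTCC. These include genes that were not tested. Of the windows of 7977 tested genes, 5.06% held TATAAA, 1.03% a CArG box, 4.48% TGANTCA and 0.389% GGAATTTCC. Of the windows of 1146 rising genes the shares were 7.68%, 1.22%, 4.89% and 0.436% in the same order, and whether they differ was not tested. A match describes letters in the window and shows no binding in these cells. Bases further than 250 upstream were not searched, so a motif missing here may lie outside the window.

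FOS, a subunit of AP-1, had FPKM values of 1.13, 3.88, 25, 61.7, 113 and 154 from DMSO through the 5 rising doses. It was higher at each dose than at the one before and rose by 6.51 ± 0.46 (adjusted p = 0.00121, limma). EGR1, a zinc finger transcription factor, had 13.8, 17.0, 74.0, 163, 271 and 332 FPKM in the same order. Its gain at 0.5 µM was small beside those of FOS and JUNB, and it rose by 5.02 ± 0.39. JUNB, an AP-1 partner of FOS, had 4.42, 12.1, 35.2, 68.6, 131 and 161 FPKM and rose by 5.01 ± 0.30. ARC, an immediate early gene best known in neurons, was at 7.20, 19.3, 77.3, 144, 205 and 208 FPKM, with little further gain between 10 and 20 µM.

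IER2, an early gene of growth signals, was at 16.7, 25.4, 53.3, 78.7, 128 and 174 FPKM, and rose by 3.38 ± 0.12, higher at each dose than at the one before. FOSB, EGR2 and ZFP36 started below 2 FPKM in DMSO. ZFP36 codes for a protein that binds AU-rich elements and speeds mRNA decay, and it rose by 2.87 ± 0.24, to 18.0 FPKM at 20 µM against 1.86 in DMSO. FOSB and EGR2 rose by 3.08 ± 0.25 and 2.38 ± 0.21, but stayed under 7 FPKM at every dose. JUN and MYC were already well expressed, at 26.8 and 30.6 FPKM in DMSO, and rose by 1.66 ± 0.20 and 1.79 ± 0.26.

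Of 31 immediate early genes listed, 25 passed the filter. Of these 17 rose and 2 fell, against 14.5% and 32.4% of all tested genes. The group's median change was 1.66, and 2.31 with median centring and 1.70 with quantile normalization. Passing 2-fold began with 4 genes from 0.5 µM and reached 11 from 2 µM, 15 from 5 µM and 17 from 20 µM. Both members that fell are FOS relatives. FOSL2 had 29.5, 26.1, 22.2, 13.4, 7.06 and 3.83 FPKM and fell by 2.67 ± 0.34, and FOSL1 had 14.9, 9.82, 8.25, 5.71, 4.02 and 2.89 FPKM and fell by 1.95 ± 0.19, whereas FOS and FOSB rose in the same libraries. Of the serum response factor gene SRF itself the change was 0.16 ± 0.19, which did not pass the test.

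**Figure D2:**
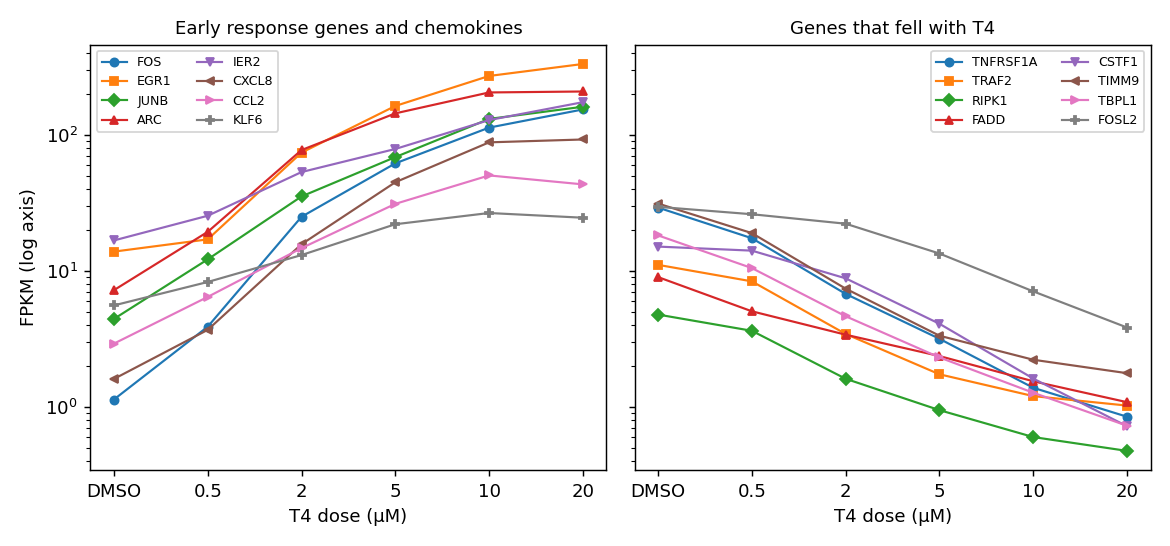
FPKM (log axis) against T4 dose in µM, with DMSO at the left and 1 library per point, for 8 early response genes and chemokines (left) and 8 genes that fell (right). FOS climbs to 154 FPKM at 20 µM, against 1.13 in DMSO, and TNFRSF1A drops to 0.844, against 29.2.

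Several chemokine genes rose alongside. CXCL8, the neutrophil attractant interleukin 8, had 1.60, 3.68, 15.7, 44.8, 88.1 and 92.5 FPKM and levelled off at 10 µM, with a rise of 5.68 ± 0.41. CCL2, which attracts monocytes, had 2.91, 6.42, 14.7, 31.1, 50.3 and 43.2 FPKM and CCL20, which attracts lymphocytes and dendritic cells, 2.71, 5.85, 18.4, 32.7, 41.2 and 31.4 FPKM, and both were highest at 10 µM. They rose by 3.82 ± 0.37 and 3.48 ± 0.54. Of 23 chemokine and cytokine genes with values, 13 passed the filter. Of these 7 rose and 1 fell (median 1.77), against 14.5% and 32.4% of all tested genes. The others that rose were CXCL3, IL11, CSF2 and HBEGF. CXCL3 was at 0.112 FPKM in DMSO, and such a gene was tested only because treatment raised it. The untested members, CXCL1, CXCL2 and TNF among them, were low in all 6 libraries, so these counts favour rises. The change of HBEGF was between 1.65 and 1.73 without the 0.5, 5 or 10 µM library and then did not pass. IL11, a cytokine of the interleukin 6 family, stayed at 8.60 FPKM at 0.5 µM against 8.93 in DMSO, and reached 46.6 at 10 µM. The single fall was that of TGFB2, a transforming growth factor, by 1.85 ± 0.30. IL6 stayed between 0.501 and 1.73 FPKM, with a change of -0.09 ± 0.34 that did not pass the test.

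Most genes of the NF-kB pathway that were called fell. TNFRSF1A, the main receptor for tumour necrosis factor, had 29.2, 17.4, 6.76, 3.16, 1.38 and 0.844 FPKM from DMSO to 20 µM and fell by 4.22 ± 0.23 (adjusted p = 0.00121, limma), the largest fall of a protein-coding gene. Genes of 3 proteins that act in signalling downstream of this receptor also fell. The ubiquitin ligase TRAF2 had 11.1, 8.36, 3.43, 1.73, 1.20 and 1.02 FPKM, the death domain adaptor FADD 8.99, 5.04, 3.39, 2.36, 1.54 and 1.08 and the kinase RIPK1 4.76, 3.62, 1.61, 0.943, 0.598 and 0.473. Each of the 3 was lower at every dose than at the one before, and they fell by 2.82 ± 0.28, 2.17 ± 0.20 and 2.11 ± 0.20.

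Among the NF-kB subunits, RELA and RELB fell by 1.79 ± 0.16 and 1.82 ± 0.16, and the kinase IKBKB, which frees NF-kB from its inhibitor, by 1.40 ± 0.19. NFKBIA and NFKBIZ, feedback genes that NF-kB itself switches on, rose by 1.77 ± 0.28 and 2.48 ± 0.27, with NFKBIA at 10.9, 15.8, 29.0, 32.9, 40.5 and 36.3 FPKM. Of 25 genes of this pathway, 15 fell and 2 rose (median -0.98), against 32.4% and 14.5% of all tested genes. With median centring 9 fell and 2 rose, and with quantile normalization 10 and 2. TNFAIP3, a deubiquitinase that shuts the pathway down, took neither course, with 1.64, 3.25, 6.85, 6.36, 3.99 and 2.17 FPKM and its highest value at 2 µM.

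MAP kinase phosphatases and feedback inhibitors of the ERK kinase pathway, which drives immediate early genes, moved in both directions. DUSP1 and DUSP2, phosphatases that are themselves early genes, rose by 1.07 ± 0.17 and 2.30 ± 0.27, and so did SPRY2 by 2.02 ± 0.57. SPRED1 and SPRED2, membrane proteins that hold back RAF activation, fell by 2.20 ± 0.32 and 2.60 ± 0.29, with SPRED2 at 13.2, 13.1, 6.38, 3.40, 2.10 and 2.07 FPKM. The phosphatases DUSP14 and DUSP10 fell by 1.62 ± 0.20 and 1.39 ± 0.31. Without the 0.5 µM or the 10 µM library the changes of SPRY2, 1.89 and 1.90, did not pass. Of 14 tested members, 6 fell and 3 rose, and with either other scaling 4 fell and 3 rose. Over all tested genes 32.4% fell and 14.5% rose.

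In the 3' end machinery, subunits of the same complex lost their level at different doses. CSTF1, a CstF subunit, had 15.1, 14.1, 8.80, 4.08, 1.61 and 0.718 FPKM and lost most of its level above 2 µM, whereas its partner CSTF3 stood at 39.9, 17.1, 16.1, 13.6, 17.1 and 14.5 FPKM and had most of its drop at the lowest dose. CSTF3 was not called by the straight fit (-1.03 ± 0.40). PAPOLG, a poly(A) polymerase, kept its level at 0.5 µM, with 3.86, 4.33, 2.93, 1.15, 0.465 and 0.428 FPKM, and WDR33, which reads the poly(A) signal, had 12.8, 9.40, 3.87, 2.12, 1.97 and 2.23. The more abundant poly(A) polymerase PAPOLA had 33.9, 30.7, 32.0, 33.5, 36.9 and 39.9 FPKM and did not pass the test. Of 20 factors 9 fell and 2 rose (median -1.02), with median centring 7 fell and 6 rose, and with quantile normalization 9 and 3. The fall of 9 in 20 stands beside 32.4% of all tested genes.

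Several of these factors bent over dose instead of following a line. The bend was tested by adding a squared term to the fit, and its size is given as the fitted value at the middle of the dose scale, 2.70 µM, minus the straight line between the fitted ends, on the log2 scale. A positive value means that the middle doses stood above that line. CLP1, a subunit of cleavage factor II, had 7.40, 11.2, 15.2, 8.78, 4.26 and 1.51 FPKM and a bend of 1.59 ± 0.16 (adjusted p = 0.00232, limma). RBBP6 and FIP1L1 bent the same way, by 1.18 ± 0.16 and 0.82 ± 0.13. CPSF2 and CPSF3 bent the opposite way, by -0.96 ± 0.16 and -0.64 ± 0.14, with CPSF2 lowest at 2 µM, at 3.88 FPKM against 11.1 in DMSO, and back at 7.17 at 20 µM. Without the 2 µM library the bends of FIP1L1, CPSF2 and CPSF3 were 0.69, -0.84 and -0.59 and did not pass.

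RNA decay genes fell widely. Of 35 deadenylases and nuclear RNA decay factors, 23 fell and 1 rose (median -1.16), with median centring 15 fell and 5 rose, and with quantile normalization 18 and 3. Of all tested genes 32.4% fell and 14.5% rose, and 17.4% fell with median centring and 19.8% with quantile normalization. RBM7, an adaptor that brings the nuclear exosome to its targets, had 12.8, 14.0, 10.9, 5.35, 2.07 and 1.31 FPKM and fell by 2.87 ± 0.43. CNOT2 and CNOT8, subunits of the main deadenylase complex, fell by 2.25 ± 0.24 and 2.16 ± 0.43, and TOB2, which links that complex to mRNAs, by 2.19 ± 0.24. EXOSC3 and EXOSC9 of the exosome core fell by 2.28 ± 0.31 and 1.97 ± 0.19. SMG9, which regulates the kinase of nonsense-mediated decay, had 18.0, 10.3, 3.89, 1.78, 1.28 and 1.13 FPKM and fell by 3.35 ± 0.36.

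Splicing genes were divided. SRSF4, an SR protein, had 17.3, 16.7, 8.18, 4.24, 2.99 and 2.26 FPKM and fell by 2.79 ± 0.25, while SRSF7, of the same family, had 44.5, 52.5, 88.3, 116, 122 and 86.8 FPKM and rose by 1.27 ± 0.35. SRSF3, the most abundant of the 3 in DMSO, fell by 1.38 ± 0.30 after a plateau to 2 µM, at 78.2, 85.7, 82.9, 62.2, 44.5 and 29.6 FPKM. The kinase CLK1, which phosphorylates SR proteins, had 12.3, 15.0, 23.9, 16.7, 6.14 and 2.67 FPKM and a bend of 1.67 ± 0.22 with no straight trend (-1.77 ± 0.78, not called). Of 40 spliceosome and SR genes 13 fell, near the 32.4% of all tested genes, and 8 rose, against 14.5%. The group's median was -0.10. It turned positive with median centring, at 0.54, with 18 rising and 5 falling, whereas quantile normalization gave 1 rising and 13 falling. SRSF7 changed by 1.16 without the 0.5 µM library and by 1.14 without the 10 µM library, neither of which passed.

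Of the general transcription machinery, 30 of 58 factors and Mediator subunits fell and 2 rose (median -0.80), against 32.4% and 14.5% of all tested genes. TBPL1, related to the TATA-binding protein, had 18.2, 10.5, 4.63, 2.30, 1.27 and 0.725 FPKM and fell by 3.56 ± 0.22. The TATA-binding protein gene TBP had 9.03, 9.94, 7.08, 3.96, 2.24 and 1.53 FPKM and fell by 2.22 ± 0.30, with its whole loss above 0.5 µM. GTF2B, which places RNA polymerase II at the start site, had 10.9, 18.2, 19.3, 10.1, 3.92 and 1.37 FPKM. It was above DMSO at 0.5 and 2 µM and lowest at 20 µM, and both its fall of 2.51 ± 0.77 and its bend of 1.68 ± 0.18 passed. Its fall did not pass without 0.5, 10 or 20 µM, where the changes were -2.36, -2.44 and -1.55. MED17 of Mediator and CDK7, a kinase that phosphorylates the polymerase tail, fell by 2.64 ± 0.31 and 2.71 ± 0.56. With median centring 15 of the 58 fell and 9 rose, and with quantile normalization 18 and 5.

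Elongation factors gave 12 falls and 1 rise among 25 (median -1.05), 6 and 3 with median centring, and 5 and 0 with quantile normalization. Over all tested genes 32.4% fell and 14.5% rose. With quantile normalization 19.8% of all fell, and the 5 of 25 lie near that share. IWS1, which travels with the polymerase, had 14.4, 14.2, 8.10, 3.54, 1.51 and 0.943 FPKM and fell by 3.33 ± 0.32. LEO1 and CTR9 belong to the PAF complex, which travels with it too. LEO1 had 9.28, 12.7, 14.0, 7.35, 2.77 and 1.13 FPKM and fell by 2.43 ± 0.66. CTR9 had 14.7, 22.7, 26.1, 16.8, 9.30 and 6.86 FPKM, and of its values only the bend passed, at 1.07 ± 0.19. Without the 2 µM library that bend was 0.91 and did not pass, and the changes of LEO1 without 0.5, 10 or 20 µM were -2.35, -2.32 and -1.67 and did not pass. HEXIM1, which holds the elongation kinase P-TEFb inactive together with 7SK RNA, had 8.44, 24.1, 47.4, 38.5, 18.1 and 6.93 FPKM and one of the 2 largest upward bends.

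That bend of HEXIM1 was 2.45 ± 0.12 (adjusted p = 0.00165, limma). Its level was several times that of DMSO at 2 and 5 µM and below DMSO at 20 µM, so its straight trend of -0.27 ± 1.08 was not called. In all, 1201 genes (11.3%) bent upwards and 1817 (17.1%) downwards. With median centring 1634 bent upwards and 1387 downwards, and with quantile normalization 1344 and 1424. The count rests on the 2 µM library, since without it 375 genes bent upwards and 257 downwards, and without 5 µM 964 bent downwards. Fitted on the 5 treated libraries alone, an alternative chosen after the data were seen, 944 bent upwards and 1638 downwards.

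Other genes that peaked in the middle include feedback and stress regulators. C3orf58, a secretory pathway kinase-like gene, had 4.27, 11.6, 29.3, 26.0, 11.8 and 4.67 FPKM and a bend of 2.46 ± 0.17. BAMBI, a decoy receptor that blocks TGF-beta and BMP signals, had 1.23, 3.42, 8.46, 6.39, 2.64 and 0.750 FPKM, with 20 µM under the DMSO level. TOB1, which recruits the deadenylase complex as TOB2 does, had 4.77, 9.79, 22.9, 21.7, 12.4 and 5.39 FPKM, so the pair of TOB genes took different courses. GPER1, an oestrogen-binding membrane receptor, and RGS16, a regulator of G protein signalling, bent by 2.06 ± 0.16 and 1.98 ± 0.21.

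ATF3, a stress-induced transcription factor, had 4.64, 8.28, 19.6, 18.1, 10.6 and 5.32 FPKM and a bend of 1.76 ± 0.18, and HMOX1, the haem-degrading enzyme, had 9.03, 13.8, 14.6, 9.44, 4.61 and 1.82 FPKM and a bend of 1.41 ± 0.13. ID2, an inhibitor of helix-loop-helix factors, was at 5.14, 11.7, 22.8, 24.6, 21.9 and 12.8 FPKM with a bend of 1.46 ± 0.10. All 3 were highest at 2 or 5 µM. SMN2 also met the naming rule for upward bends, but it and SMN1 are near-identical copies, so both are uncertain. At 0.5 µM SMN2 had 7.96 FPKM and SMN1 was near 0, against 0.0366 and 6.42 FPKM in DMSO.

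**Figure D3:**
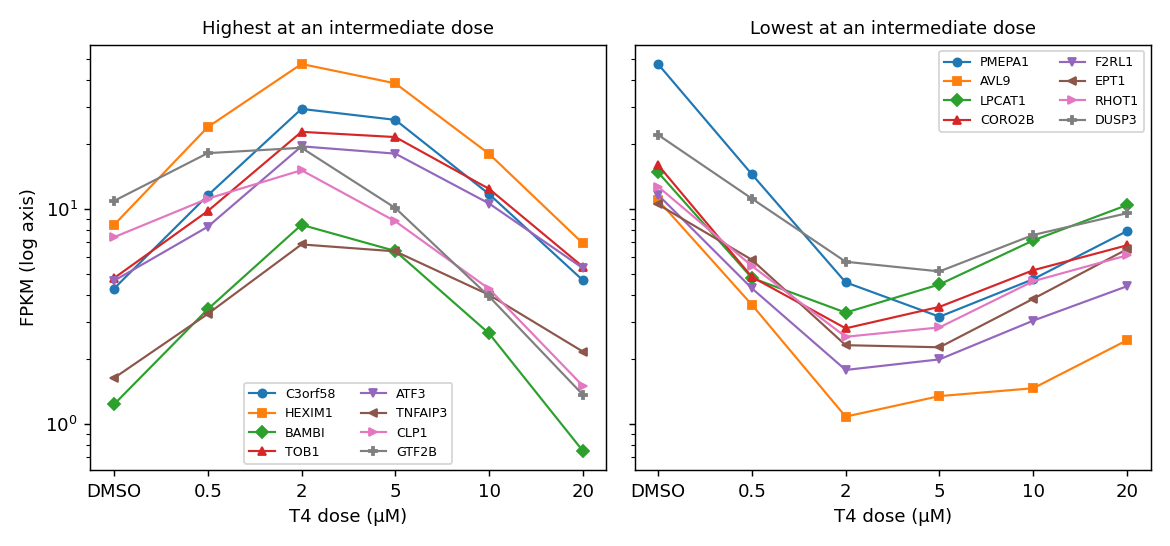
FPKM (log axis) against T4 dose in µM, with DMSO at the left and 1 library per point, for 8 genes that were highest (left) and 8 that were lowest (right) at an intermediate dose. HEXIM1 reaches 47.4 FPKM at 2 µM between 8.44 in DMSO and 6.93 at 20 µM, and PMEPA1 drops to 3.16 at 5 µM between 47.3 in DMSO and 7.91 at 20 µM.

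The reverse shape, lowest in the middle and partly back at 20 µM, was led by PMEPA1. This gene, a TGF-beta target that dampens the same pathway, had 47.3, 14.5, 4.57, 3.16, 4.72 and 7.91 FPKM and a bend of -2.10 ± 0.13. LPCAT1, an enzyme of phospholipid remodelling, had 14.8, 4.79, 3.30, 4.47, 7.15 and 10.5 FPKM, and CORO2B, an actin-binding coronin, 16, 4.84, 2.79, 3.51, 5.20 and 6.79 FPKM. F2RL1, a receptor cut by proteases, and RHOT1, which ties mitochondria to motor proteins, bent by -1.55 ± 0.17 and -1.45 ± 0.18. EPT1, an enzyme of phosphatidylethanolamine synthesis, and AVL9, a protein of vesicle traffic, bent by -1.51 ± 0.17 and -1.57 ± 0.17. The phosphatase DUSP3 had the same shape, at 22.2, 11.2, 5.69, 5.13, 7.59 and 9.58 FPKM. Each of these genes was lower than in DMSO at all 5 doses.

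Mitotic genes fell late and deep. AURKA, a centrosome kinase, had 40.5, 44.3, 32.6, 12.4, 4.54 and 1.81 FPKM from DMSO to 20 µM. It was not lower than DMSO at 0.5 µM, was lower at each later dose than at the one before, and fell by 4.15 ± 0.57. TTK, the kinase at the head of the spindle checkpoint, had 14.8, 17.4, 11.4, 4.84, 1.96 and 1.11 FPKM and FAM83D, a spindle protein, 22.7, 24.0, 17.3, 8.15, 3.11 and 1.11, and both kept the DMSO level or more at 0.5 µM. They fell by 3.28 ± 0.43 and 3.65 ± 0.50. CENPA, the centromeric histone, fell by 2.99 ± 0.26 and its loading factor HJURP, with 18.7, 17.3, 11.5, 5.92, 2.24 and 1.17 FPKM, by 3.38 ± 0.36.

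Of 32 mitosis genes 23 fell and 0 rose by limma (0 at an unadjusted p under 0.05), against 32.4% of all genes falling, and the group's median ratio to DMSO went through 0.02, -0.35, -0.84, -1.21 and -1.29 (log2) over the 5 doses. With median centring 19 fell and 3 rose, and with quantile normalization 23 fell and 0 rose. Among 42 DNA replication genes 18 fell and 5 rose (median -0.37), beside 32.4% and 14.5% of all tested genes. With median centring 15 rose and 10 fell and the median was 0.28, but with quantile normalization 3 rose and 15 fell (median -0.40). Origin recognition and licensing genes were among the falls, with CDC6 at 44.5, 40.6, 26.5, 18.8, 14.5 and 12.1 FPKM, a fall of 1.94 ± 0.13. ORC1 and RFC4, a subunit of the clamp loader, fell by 2.19 ± 0.31 and 2.26 ± 0.22.

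**Figure D4:**
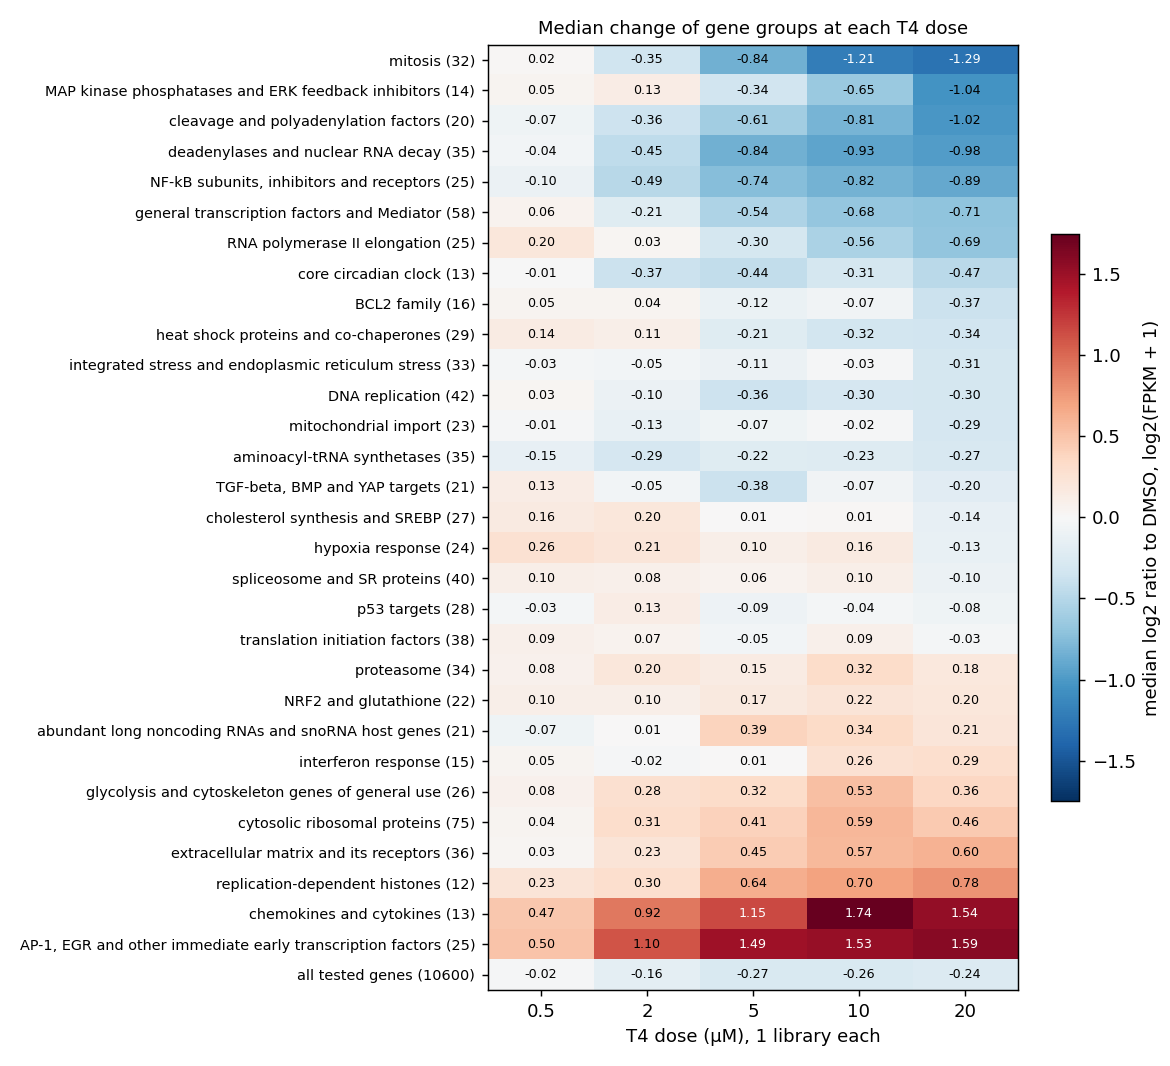
Median log2 ratio to DMSO of the tested members of 30 gene groups and of all tested genes (bottom row) at each T4 dose in µM, with the number of members in brackets, on the log2(FPKM + 1) scale (blue lower, red higher). At 20 µM the medians run from -1.29 for mitosis genes to 1.59 for immediate early genes, beside -0.24 for all genes.

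Stress pathways moved in both directions. XBP1, a transcription factor of the unfolded protein response, had 28.7, 20.6, 13.6, 8.35, 4.74 and 2.35 FPKM and fell by 3.09 ± 0.21 (adjusted p = 0.00121, limma). DDIT3 and TRIB3, which act downstream of ATF4 in stressed cells, fell by 1.72 ± 0.20 and 2.48 ± 0.28, and DDIT3 had 3.80, 1.75, 1.53, 0.831, 0.486 and 0.355 FPKM. CHAC1, which degrades glutathione, and HERPUD1, of protein disposal at the endoplasmic reticulum, fell by 1.74 ± 0.19 and 1.99 ± 0.34. Of 33 genes of the integrated and endoplasmic reticulum stress responses, 12 fell and 7 rose (median -0.19), beside 32.4% and 14.5% of all tested genes. With median centring 15 rose and 9 fell, and with quantile normalization 4 rose and 11 fell.

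Of 29 heat shock proteins and co-chaperones, 13 fell and 3 rose, with BAG2 at 22.8, 27.2, 18.6, 9.97, 6.02 and 3.95 FPKM and a fall of 2.54 ± 0.34, and BAG3, a co-chaperone of stressed cells, down by 1.96 ± 0.47. Without 0.5, 10 or 20 µM the changes of BAG3 were -1.85, -1.93 and -1.42 and did not pass. With median centring 8 rose and 4 fell, and with quantile normalization 0 rose and 12 fell. Of all tested genes 32.4% fell and 14.5% rose without either scaling. BAG3, DNAJA2 and HSF2 were above DMSO at 0.5 and 2 µM and below it from 10 µM. HSF2, a heat shock transcription factor, had 7.22, 10.3, 10.8, 6.75, 3.66 and 1.80 FPKM.

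In the antioxidant pathway, both the transcription factor NRF2 (NFE2L2) and its inhibitor fell. NFE2L2 had 16, 11.3, 4.90, 2.66, 1.89 and 2.08 FPKM and fell by 2.75 ± 0.33, and KEAP1, which marks NRF2 for destruction, had 13.6, 14.9, 8.85, 4.73, 2.61 and 1.87 FPKM and fell by 2.66 ± 0.29. GCLC, the rate-limiting enzyme of glutathione synthesis, fell by 3.07 ± 0.35, while the peroxidases GPX1 and GPX4 rose by 0.82 ± 0.16 and 0.91 ± 0.12. Of 22 genes 9 rose and 7 fell, with median centring 14 and 5, and with quantile normalization 9 and 6. The 7 of 22 lie near the 32.4% of all tested genes that fell, and 14.5% of all rose.

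Few apoptosis genes were called. BAK1, which permeabilizes mitochondria, and BCL2L1, which prevents this, fell by 2.41 ± 0.21 and 1.53 ± 0.18. BBC3, a p53-induced killer protein, rose by 1.54 ± 0.49, with 1.62, 2.53, 6.99, 8.06, 7.21 and 5.61 FPKM. Without 0.5, 5 or 10 µM its changes were 1.41, 1.44 and 1.51 and did not pass. Of 16 BCL2 family genes 4 fell and 1 rose, smaller shares than the 32.4% and 14.5% of all tested genes. With median centring 3 fell and 5 rose, and with quantile normalization 3 and 3. Of 28 p53 targets 11 fell and 4 rose (median -0.09), beside the same shares of all tested genes. With median centring 12 rose and 5 fell, and with quantile normalization 7 and 4. PHLDA3 and SESN1, which p53 switches on, fell by 1.49 ± 0.16 and 1.45 ± 0.16.

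Among abundant transcripts the changes were small and upward. ACTB and GAPDH, the most abundant genes in DMSO, had 1159.5, 1281, 1600.3, 1662, 1806 and 1550.0 and 996, 1062, 1370.2, 1453, 1636 and 1529 FPKM. GAPDH rose by 0.72 ± 0.13, or 0.11 with quantile normalization, where it was not called. Of 75 cytosolic ribosomal protein genes 65 rose and 0 fell by limma (0 at an unadjusted p under 0.05; median 0.57), with a change of 0.65 ± 0.11 for RPS12. Of all tested genes 14.5% rose. With quantile normalization 20 of the 75 rose, near the 26.5% of all tested genes, and 6 fell (median 0.10). RPS29, RPL38, RPL8 and RPL24 then turned negative. Those 3 RPL genes and RPS29 also lost their calls without the 0.5 µM library, with changes of between 0.46 and 0.54. The summed FPKM share of the 100 most abundant genes was 19.1% in DMSO and 20.3%, 24.7%, 24.0%, 25.3% and 23.4% at the 5 doses, and its part in these changes was not tested.

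Matrix genes rose under all 3 scalings. COL3A1, a fibrillar collagen, had 21.6, 24.5, 32.7, 38.6, 43.8 and 46.0 FPKM and rose by 1.13 ± 0.11. TIMP2 and MMP2, an inhibitor of matrix proteases and such a protease, rose by 1.06 ± 0.11 and 0.98 ± 0.11. LAMA5, a laminin chain of basement membranes, had 4.95, 5.54, 7.20, 10.4, 9.61 and 11.7 FPKM and rose by 1.14 ± 0.19. Over all tested genes 14.5% rose, 40.5% with median centring and 26.5% with quantile normalization. Of 36 genes of the matrix and its receptors 28 rose and 1 fell (median 0.69), with median centring 32 and 0, and with quantile normalization 25 and 1 (median 0.48). Their median ratio to DMSO was 0.03 (log2) at 0.5 µM and 0.60 at 20 µM.

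The lowest dose, 0.5 µM, already separated some genes from DMSO. ST6GALNAC5, a sialyltransferase, had 8.53, 2.42, 0.860, 0.522, 0.855 and 0.836 FPKM, and ZNF623, a zinc finger gene, 3.90, 0.785, 0.450, 0.369, 0.307 and 0.426, so that both stayed low after a first drop. C15orf52 had 13.6, 4.16, 3.35, 5.25, 6.32 and 7.37 FPKM and was lowest at 2 µM. On the rising side, the noncoding RNA LINC00273 had 0.274, 3.25, 13.3, 16.7, 14.2 and 22.4 FPKM and ANKRD30BL 0.389, 9.37, 30.5, 31.7, 22.5 and 36.8, and they rose by 3.84 ± 0.71 and 3.93 ± 1.08. Without the 10 µM library the change of ANKRD30BL was 4.28 and did not pass. CCDC85B was at 3.77, 14.2, 16, 6.94, 4.20 and 5.23 FPKM and peaked at 2 µM.

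Some of the largest ratios at 0.5 µM cannot be read. HNRNPR was at 113 FPKM at 0.5 µM and listed at 0 in DMSO, and this splicing factor is used by every cell, so that 0 may be a failed estimate. RPL21 was near 0 in DMSO and at 5 and 20 µM but at between 1.90 and 2.82 FPKM in the other 3 libraries, and it has many pseudogene copies. ALMS1-IT1, SUMO4 and the read-through gene TMED7-TICAM2 overlap or copy other genes, and strand use is not stated. KRTAP20-4, a keratin-associated protein gene, had 9.50, 5.35, 6.18, 0, 0 and 0 FPKM.

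T4 was compared with T5 and with CPT, 2 pairs in all, as the mean difference over the 5 shared doses with dose as a block and without the DMSO library. Against T5, 2807 genes (26.5%) were higher with T4 and 641 (6.05%) lower, by limma over 10 libraries. Most differences were small, with a median of 0.06 over all genes. This balance depends on scaling, since median centring gave 1166 higher and 2622 lower with T4, and quantile normalization 1339 and 1064. Without the 2 µM libraries 1647 genes were higher and 294 lower, without 5 µM 1655 and 298, and without 20 µM 349 were lower.

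Most immediate early genes were lower with T4 than with T5 at matched doses. FOS had 3.88, 25, 61.7, 113 and 154 FPKM with T4 from 0.5 to 20 µM, and 9.41, 50.4, 122, 205 and 254 with T5, a mean difference of -0.92 ± 0.05 (adjusted p = 0.00304, limma). IL11 had 8.60, 16.1, 30.4, 46.6 and 40.2 FPKM with T4 and 10.5, 31.5, 71.0, 119.6 and 114 with T5, a difference of -1.04 ± 0.17. The chemokine gene CXCL3, the natriuretic peptide gene NPPC, the Wnt receptor gene FZD8 and SAT1, a polyamine-acetylating enzyme, were lower with T4 at all 5 doses, with mean differences of between -1.09 and -0.90. Without the 20 µM pair the difference of NPPC was -0.93 and did not pass. NPPC was at 0 FPKM in DMSO and at most 1.89 with T4, against up to 8.41 with T5 and 7.86 with CPT. It passed the filter only through T5 and CPT libraries, which favours a lower level with T4. Of 25 immediate early genes 17 were lower with T4 than with T5 and 0 higher (0 higher at an unadjusted p under 0.05), against 6.05% and 26.5% of all tested genes. With median centring 20 were lower and 0 higher, and with quantile normalization 15 and 0. Of 13 chemokine and cytokine genes 7 were lower with T4 and 1 higher, and CCL2 differed by -0.10 ± 0.10, which did not pass.

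Mitotic genes were higher with T4 than with T5. AURKA had 44.3, 32.6, 12.4, 4.54 and 1.81 FPKM with T4 and 40.6, 18.5, 5.63, 2.18 and 0.549 with T5, a mean difference of 0.72 ± 0.12. PLK1, another mitotic kinase, differed by 0.70 ± 0.14, with 9.47 FPKM at 20 µM T4 and 3.80 at 20 µM T5. FRMD6, a membrane-linked protein of the Hippo pathway, had the largest such difference under the naming rule, 0.78 ± 0.06. Of 32 mitosis genes 27 were higher with T4 and 0 lower (0 lower at an unadjusted p under 0.05), with median centring 20 and 1, and with quantile normalization 24 and 0. In the 3' end machinery 5 of 20 factors were higher with T4, close to the 26.5% of all tested genes, and 0 lower (1 lower at an unadjusted p under 0.05), among them CSTF2T by 0.32 ± 0.06 and WDR33 by 0.33 ± 0.06, but median centring gave 3 higher and 5 lower, and quantile normalization 2 and 1. CSTF1 differed by 0.19 ± 0.07, which did not pass the test.

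**Figure D5:**
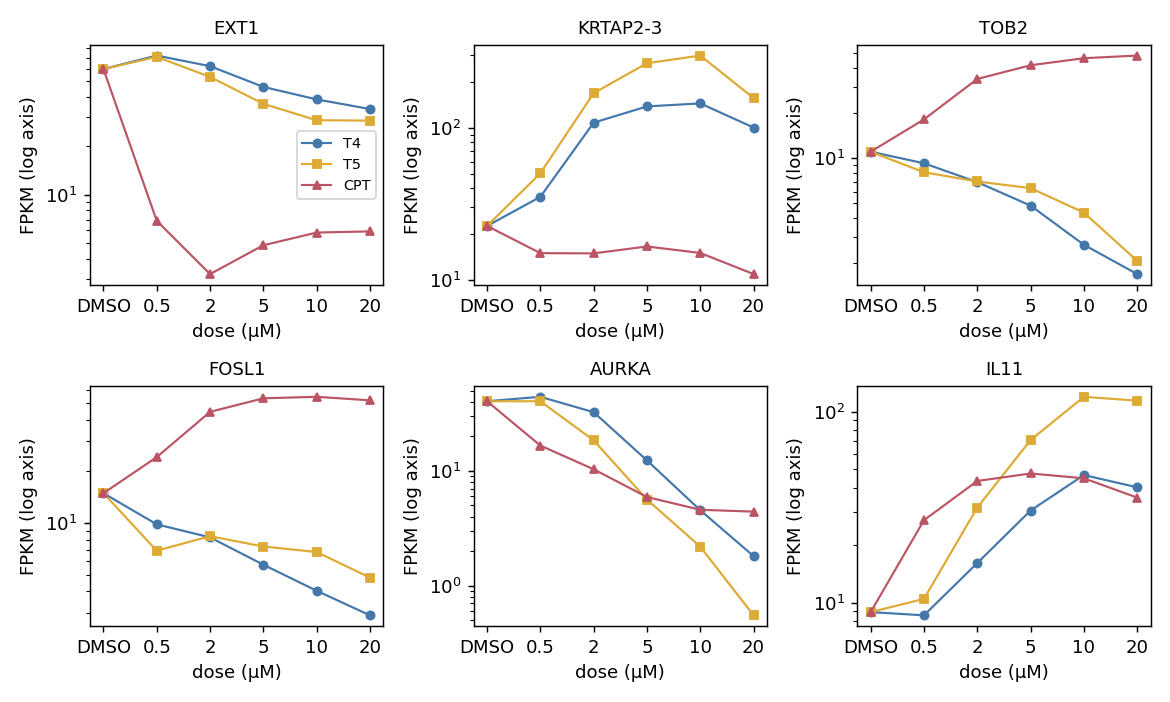
FPKM (log axis) against dose in µM, with the shared DMSO library at the left and 1 library per point, for T4 (blue), T5 (yellow) and CPT (red). At matched doses T4 and T5 lie above CPT for EXT1 and KRTAP2-3 and below it for TOB2 and FOSL1. AURKA and IL11 differed between T4 and T5 but did not pass the test between T4 and CPT. EXT1 and KRTAP2-3 also differed between T4 and T5, by means of 0.25 and -0.75 (log2).

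Against CPT the differences were larger, with 2999 genes (28.3%) higher and 3913 (36.9%) lower with T4. EXT1, which polymerizes heparan sulphate chains, had 72.3, 62.2, 46.3, 38.8 and 33.8 FPKM with T4 and 6.88, 3.22, 4.85, 5.82 and 5.92 with CPT, a mean difference of 3.00 ± 0.22 (adjusted p = 0.000391, limma). GPHN, a synaptic scaffold also needed for molybdenum cofactor synthesis, had 19.7, 11.9, 8.09, 6.41 and 6.33 FPKM with T4 and 0.659, 0.771, 0.816, 0.957 and 1.07 with CPT. PPP2R5E, a regulatory subunit of protein phosphatase 2A, and NUP35, a nuclear pore protein, were higher with T4 by 2.21 ± 0.18 and 2.43 ± 0.22. The T4 and CPT values of EXT1 and GPHN do not overlap over the 5 doses. These genes were named for large differences of 1 sign at all 5 doses, so this separation follows largely from the choice. How many of all tested genes separate in this way was not counted.

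Genes lower with T4 than with CPT included a lipid receptor and regulators of proliferation. S1PR3, a sphingosine phosphate receptor, had 1.93, 1.16, 0.831, 0.816 and 0.938 FPKM with T4 and 13.2, 18.9, 17.3, 15.5 and 16.8 with CPT, a difference of -3.04 ± 0.16. TOB2 had 9.26, 6.93, 4.83, 2.65 and 1.69 FPKM with T4 and 18.2, 33.8, 41.7, 46.5 and 48.4 with CPT, and FOSL1 9.82, 8.25, 5.71, 4.02 and 2.89 with T4 and 24.2, 44.5, 53.4, 54.5 and 52.0 with CPT. The values of T4 and CPT do not overlap in any of these 3 genes. DMSO lay between them, at 3.69 FPKM for S1PR3, 11.1 for TOB2 and 14.9 for FOSL1. The 3 genes were named by that same rule, so the separation of T4 from CPT follows largely from the choice. TMEM177, FAM220A and FAM46C were also lower with T4, with differences of -3.03 ± 0.47, -2.85 ± 0.27 and -2.81 ± 0.34. FAM46C had 0.819 FPKM in DMSO and at most 1.83 with T4, against up to 14.1 with CPT. It passed the filter only through CPT libraries, so its difference follows largely from the filter.

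Of all tested genes 36.9% were lower with T4 than with CPT and 28.3% higher. By group, 21 of 28 p53 targets were lower with T4 and 1 higher. Of 14 MAP kinase phosphatases and ERK feedback inhibitors 10 were lower and 1 higher. Of the NF-kB pathway 15 of 25 genes were lower with T4 and 3 higher, with TNFRSF1A at -1.78 ± 0.22. In the 3' end machinery 6 of 20 factors were higher and 6 lower with T4, near the shares of all tested genes. FIP1L1 was higher with T4 by 1.25 ± 0.19 and CLP1 lower by a difference of -1.98 ± 0.41. Median centring and quantile normalization kept these group counts within 2 genes of those given.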

How the data were processed

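mRNA libraries of U2OS cells were sequenced on an Illumina HiSeq instrument from total RNA, per the labels' protocols. The submitters' processing notes name Cufflinks, GSNAP and hg19 (GRCh37). The authors deposited FPKM per gene, per the file headers, with no counts, so depth is unknown and only relative depth was read, from genes under 0.2 FPKM. No source used here gives strand use or poly(A) selection, so overlapping genes and near-identical copies are uncertain. The file held 25270 genes after 2 inner header lines, 1 incomplete line and 220 identical repeats were dropped.

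Genes with a mean of at least 1 FPKM over 16 libraries (10600) were tested on log2(FPKM + 1) with limma 3.58.1 (R 4.3.3), with a mean-variance trend and Benjamini-Hochberg adjustment over all of them at 0.05. On the log2(FPKM + 1) scale the fold change of low genes is understated. The T4 trend used DMSO and 5 doses on log2(1 + dose/0.5 µM), the bend added a squared term, and T4 minus T5 and T4 minus CPT used the 5 matched doses as blocks. Each library is its group's single sample, and p-values weigh the fitted effect against scatter around the fit, which may be technical. For the straight trend that scatter includes curvature. On simulated data of 10600 genes, with a change placed in 200 of them, the trend recovered 31% of log2 changes of 1 and 76% of changes of 2. Far more genes were called in the real data, so this recovery need not apply to them.

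Named genes are the 12 largest rises and falls with 1 sign at all 5 doses, the 8 largest bends each way, the 6 largest differences each way from T5 and CPT, the 8 largest ratios each way at the lowest dose, the 10 most abundant genes in DMSO, all cleavage and polyadenylation factors, and, in each list, up to 8 members of largest change. Not all of them are printed, and the other named members were chosen after their values were seen. Members and lists were chosen with earlier results of these data known. Alternatives were another pseudocount (0.1), no filter, median centring, quantile normalization, other dose scales, no mean-variance trend, the treated libraries alone and leaving out each dose.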

Additional observations from a re-analysis of the deposited data

How the results depend on the processing

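Counts of rising and falling genes moved most with scaling and dose scale. Median centring gave 4293 rising and 1847 falling genes, quantile normalization 2807 and 2102, and a linear dose scale 99 and 1328. Leaving out 1 treated library gave 785 to 1386 rising and 2351 to 3494 falling genes, 375 to 1572 bending upwards and 257 to 2215 bending downwards. For T4 against T5, median centring gave 1166 higher and 2622 lower, quantile normalization 1339 and 1064, and leaving out 1 dose 1647 to 2674 higher and 294 to 756 lower. Leaving out 1 dose gave 2586 to 2992 higher and 3118 to 3828 lower than with CPT, and no alternative moved either CPT count by over 1.5 times. The cause of these shifts was not tested.

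Of 1960 alternative values of single named genes, 1837 kept direction and side of the threshold, 110 lost the call, 2 gained it and 11 changed sign. Of those lost, 53 were on the linear dose scale. The changes of RPL24, RPL38, RPL8 and RPS29 were -0.059, -0.024, -0.065 and -0.073 with quantile normalization. Among genes that were not called, HEXIM1 was at 0.38 with median centring, 0.19 with quantile normalization and between -0.49 and 1.35 when 1 treated library was left out. In the same order IL6 was at 0.55, 0.31 and between -0.11 and 0.33, and SRF at -0.13 on the treated libraries alone. No paired analysis was possible because each group has 1 library, so replicate numbers pair nothing. The comparisons with T5 and CPT were blocked by dose, not by replicate. Depth is unknown, so values near 0 FPKM carry no counting interval.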

Other observations

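Sterol and lipid genes moved in both directions with T4. SQLE, an early oxygenation step of cholesterol synthesis, had 26.6, 38.3, 33.2, 16.9, 8.63 and 4.56 FPKM from DMSO through 0.5, 2, 5, 10 and 20 µM and fell by 2.56 ± 0.55 on the log2(FPKM + 1) scale (adjusted p = 0.0106, limma). Without the 20 µM library its change was -1.96 and did not pass. SREBF2, a transcription factor that switches on sterol synthesis genes, rose by 0.82 ± 0.11, as did the fatty acid desaturase SCD by 0.94 ± 0.09. Of 27 genes 7 fell and 5 rose, with median centring 6 fell and 13 rose, and with quantile normalization 6 and 8. The 7 of 27 lie below the 32.4% of all tested genes that fell. Among 13 clock genes BHLHE40 rose by 2.28 ± 0.15, with 17.8, 21.6, 38.4, 54.3, 72.0 and 79.8 FPKM, while TEF and PER2 fell by 2.45 ± 0.22 and 1.57 ± 0.20. Of 21 genes of the TGF-beta, BMP and YAP pathways 7 fell and 4 rose, with AMOTL2, an inhibitor of YAP, at 24.7, 24.7, 19, 9.33, 4.11 and 2.35 FPKM and ID3 up by 1.56 ± 0.19. With median centring 6 of them fell and 9 rose, and with quantile normalization 6 and 2. The 7 of 21 lie near the 32.4% of all tested genes that fell.

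Mitochondrial import gave 9 falls and 2 rises among 23 genes, 6 and 9 with median centring, and 9 and 3 with quantile normalization. Over all tested genes 32.4% fell and 14.5% rose, 17.4% and 40.5% with median centring, and 19.8% and 26.5% with quantile normalization. The 9 of 23 that fell without scaling and the 9 that rose with median centring lie near these shares. With quantile normalization a larger share of the group fell, and a smaller share rose, than of all tested genes. TIMM9, a chaperone of the space between the membranes, had 31.2, 18.9, 7.39, 3.33, 2.22 and 1.76 FPKM, and TIMM22 and TOMM70A fell by 2.66 ± 0.23 and 2.20 ± 0.29. HARS2, a mitochondrial tRNA synthetase, had 8.63, 6.82, 2.86, 1.37, 0.966 and 0.782 FPKM, and 13 of 35 synthetases fell and 2 rose, with median centring 4 and 15, and with quantile normalization 9 and 5. The 13 of 35 also lie near the 32.4% of all tested genes. Among 15 interferon-response genes 5 rose (12 with median centring and 10 with quantile normalization), including IFITM3 by 0.89 ± 0.11 and B2M by 0.74 ± 0.10, and IRF9 fell by 1.36 ± 0.25. The snoRNA host gene SNHG1 had 44.9, 42.4, 86.6, 142, 161 and 131 FPKM and rose by 2.02 ± 0.35, whereas SNHG7 and GAS5 fell by 1.95 ± 0.15 and 1.02 ± 0.20.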
